A study of Mus musculus with 8 samples.

Results

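Transcripts of insulin-like growth factor 1 (Igf1) and of 5 IGF-binding proteins, Igfbp3, Igfbp4, Igfbp5, Igfbp6 and Igfbp7, were followed in the mouse uterus after deletion of Ezh2. These 6 genes were taken by name from 5828 genes in 4 deposited comparison tables, and were selected on the measured levels and folds of those tables, so their values are given as a description. Sections of uterus were profiled by Visium, an array whose barcoded spots capture messenger RNA under the tissue, and each spot can hold several cells. The conditional knockout females (Ezh2cKO, KO below; n = 4) had the genotype EZ fl/fl; Prcre/+, that is, floxed Ezh2 alleles with a Cre recombinase expressed from the progesterone receptor locus. The females called wild type (WT; n = 4) had the genotype EZ fl/fl, so they too carried the floxed alleles, without Cre. The animals came from 4 litters, each giving a KO and a WT female, a pairing that the pooled values do not keep. All 8 animals were of mixed C57BL/6 and 129SvEv background, were ovariectomized at postnatal day 71 ± 4 and gave their uteri at day 112 ± 11, so both genotypes lacked ovarian hormones. Cre acts in cells that use the progesterone receptor gene, and the knock-in also inactivates the Pgr allele that carries it, which the WT females lack. The tables compare spots that the authors called epithelium or stroma. Spots of all animals of a genotype were pooled, giving 4 pools with 1 value per gene and hence no spread between animals.

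IGF1 is a secreted growth factor that acts through the receptor tyrosine kinase IGF1R and its PI3K-AKT and RAS-MAPK arms. In the mouse uterus it is made largely by the stroma, is induced by estrogen, and signals to the overlying epithelium. IGF-binding proteins hold IGFs in tissue fluid and matrix, and either keep the ligand from its receptor or release it when proteases cut them. Ezh2 encodes the histone methyltransferase of Polycomb repressive complex 2, which represses genes through H3K27me3 and in mammals is found mostly at CpG-rich promoters.

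The 6 genes are protein-coding and lie at 6 separate places in the mouse genome (GENCODE M21, GRCm38). Igf1 (ENSMUSG00000020053) spans chr10:87858265-87937042 on the plus strand. Igfbp3 (ENSMUSG00000020427) spans chr11:7206086-7213923 on the minus strand, and Igfbp4 (ENSMUSG00000017493) lies far away on the same chromosome, at chr11:99041244-99054392 on the plus strand. Igfbp5 (ENSMUSG00000026185) spans chr1:72857932-72874884 on the minus strand. Igfbp6 (ENSMUSG00000023046) spans chr15:102144362-102149511 on the plus strand, and Igfbp7 (ENSMUSG00000036256) spans chr5:77349240-77408041 on the minus strand. Igfbp5 stands tail to tail with Igfbp2, with 5457 bases between the genes, and Igfbp3 stands tail to tail with Igfbp1, with 3539 bases between them. Igfbp1, Igfbp2 and Igf2 are not analysed here, nor is Ezh2, so these values hold no check of the deletion.

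Promoter sequences were matched in RefSeq (GRCm38.p6) for all 6 genes. Those of 3 binding proteins are shown because their transcripts behaved differently: Igfbp5 was higher in both KO pools and most so in epithelium, Igfbp4 was higher in both KO pools by a like factor, and Igfbp3 differed mainly between compartments. Each is the 250 bases before the transcript start, 5′ to 3′, with CpG dinucleotides in capitals. They lie at chr1:72874866-72875115 (minus strand) for Igfbp5, chr11:99040994-99041243 (plus strand) for Igfbp4 and chr11:7213924-7214173 (minus strand) for Igfbp3.
Igfbp5: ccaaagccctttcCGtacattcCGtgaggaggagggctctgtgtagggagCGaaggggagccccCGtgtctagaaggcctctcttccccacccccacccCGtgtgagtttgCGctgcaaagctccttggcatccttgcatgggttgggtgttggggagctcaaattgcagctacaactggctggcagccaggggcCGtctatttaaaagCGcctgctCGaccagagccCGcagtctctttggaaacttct
Igfbp4: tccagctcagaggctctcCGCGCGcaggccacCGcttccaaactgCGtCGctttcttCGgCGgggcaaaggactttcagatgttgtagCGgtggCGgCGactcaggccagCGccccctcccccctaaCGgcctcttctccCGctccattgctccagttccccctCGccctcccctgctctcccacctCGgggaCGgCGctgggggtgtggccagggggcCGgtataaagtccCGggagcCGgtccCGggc
Igfbp3: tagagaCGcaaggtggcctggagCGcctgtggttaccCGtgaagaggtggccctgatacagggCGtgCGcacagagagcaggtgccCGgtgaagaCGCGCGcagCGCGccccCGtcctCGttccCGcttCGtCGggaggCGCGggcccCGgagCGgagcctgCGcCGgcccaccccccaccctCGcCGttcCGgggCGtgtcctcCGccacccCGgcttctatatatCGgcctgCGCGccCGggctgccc
The printed stretches hold 10 CpGs for Igfbp5, 22 for Igfbp4 and 32 for Igfbp3. Over the 300-base window that also takes in the first 50 transcribed bases, the observed over expected CpG ratio was 0.420 for Igfbp5 and 0.307 for Igf1, against a median of 0.384 over 32851 promoters. It was higher in the other 4, at 0.614 for Igfbp6, 0.724 for Igfbp4, 0.832 for Igfbp7 and 0.961 for Igfbp3. Igfbp5 had the lowest CpG ratio of the 5 binding proteins. Any link between these CpG ratios and the KO over WT ratios was not tested. The letters TATAAA, sought on both strands, were found in the windows of Igfbp4 (28 bases before the start) and Igfbp6, and in 13.6% of all promoter windows. The letters GGGCGG were found for Igfbp7 and in 35.7% of windows, and the palindromic estrogen response element was found for no member and in 0.0700% of windows. Such matches describe letters in these windows only.

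Depth and compartment markers set the frame for these values. Unique molecular identifiers (UMIs, 1 per captured transcript) summed over the listed genes ranged from 416747 in WT stroma to 1552958 in KO epithelium. These sums cover unlike gene sets, with 1782 genes listed for WT stroma and 5823 for KO epithelium. Levels below are UMIs scaled to the depth of the WT stroma pool, and the depth used for KO epithelium was 2.75 times that. Intervals are 95% exact intervals of the pooled counts and cover counting error only. All 6 genes are listed in all 4 tables. A gene enters a table when its deposited average exceeds 1 in a group. Of the 24 entries 5 entered through a single group, always stroma (Igf1 in 3 tables, Igfbp3 and Igfbp5 in the WT table). Between the stroma pools, Igf1 entered through WT stroma. The pools carried the markers of their names. Among 23 simple epithelium markers, all 18 listed in the KO compartment table and all 14 listed in the WT one were called higher in epithelium. Of the endometrial stroma list, 5 of 19 listed genes in KO and 12 of 17 in WT were called lower in epithelium. No epithelium marker was at 0 in stroma, where the 14 with a value in every pool ranged from 20 to 697 UMIs in KO and from 3 to 157 in WT. The Cre driver gene Pgr had a KO over WT ratio of 0.862 in epithelium and 0.917 in stroma, neither called.

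The ligand transcript was scarce and mostly stromal. KO epithelium held 98 Igf1 UMIs and WT epithelium 68, while KO stroma held 142 and WT stroma 89. Scaled for depth, the level was 35.6 (interval 28.9 to 43.4) for KO and 26.8 (20.8 to 33.9) for WT epithelium. It was 70.6 (59.4 to 83.2) for KO and 89.0 (71.5 to 110) for WT stroma. Both stroma pools stood above both epithelium pools, and within each compartment the intervals of the genotypes overlapped.

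Igfbp5, whose protein binds IGFs and the extracellular matrix and is cut by pappalysins, had 523 UMIs in KO and 154 in WT epithelium, with 1093 in KO and 363 in WT stroma. Its scaled levels were 190 in KO and 60.6 in WT epithelium, with 543 in KO and 363 in WT stroma. KO stroma was highest, followed by WT stroma, KO epithelium and WT epithelium, and no intervals overlapped. Igfbp4, which in most cell systems holds IGF action back until pappalysin cuts it, had scaled levels of 737 in KO and 429 in WT epithelium, with 933 in KO and 588 in WT stroma. Here the order ran by genotype first: both KO pools stood above both WT pools, again with no overlap of intervals.

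Igfbp6, a binding protein that prefers IGF2, had scaled levels of 229 in KO and 121 in WT epithelium, with 377 in KO and 336 in WT stroma. The stroma intervals overlapped, at 350 to 405 in KO and 301 to 374 in WT. Igfbp3, the main carrier of IGFs in blood and also a tissue protein, had scaled levels of 80.2 in KO and 57.4 in WT epithelium, with 559 in KO and 547 in WT stroma. Its stroma pools overlapped and its epithelium pools did not. Igfbp7, a low-affinity relative found in vessel walls and stroma, was the most counted of the 6, at 845 in KO and 616 in WT epithelium, and 1179 in KO and 1051 in WT stroma. Its 4 intervals were separate.

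**Figure D1:**
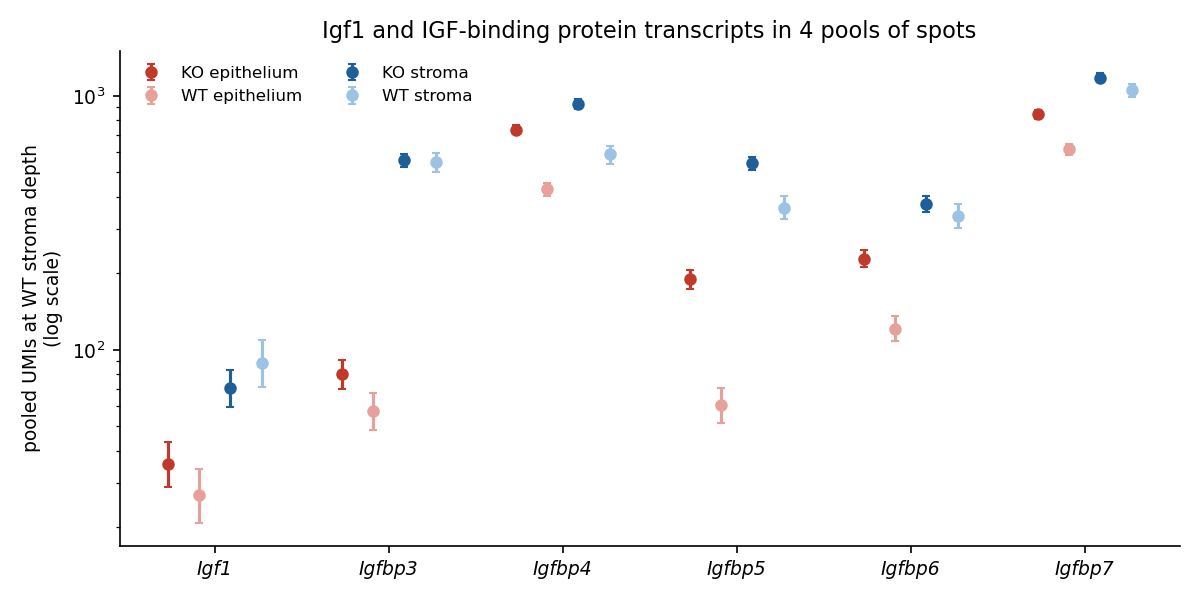
Pooled UMIs of each gene at the depth of the WT stroma pool (log axis) in KO and WT epithelium and stroma; points are single pools of 4 animals and bars are 95% exact counting intervals. Stroma pools stand above epithelium pools of the same genotype for each gene, while Igfbp4 is higher in KO epithelium (737) than in WT stroma (588).

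The first comparison sets the KO epithelium pool against the WT epithelium pool. It cannot separate Ezh2 deletion from the Cre and the inactivated Pgr allele that KO females also carried. Of the 6 genes Igfbp5 alone was called (an adjusted p-value under 0.05 in the authors' deposited table), where 0.0688% of 5811 listed genes were called higher and 0.120% in either direction. Igfbp5 was 3.13-fold higher in KO than in WT epithelium (interval 2.61 to 3.78, with adjusted p = 0.0367 in the authors' deposited table). Since this contrast was in view when the genes were chosen, nothing is read from the count. The other 5 were not called and had ratios of 1.89 for Igfbp6 (1.64 to 2.17), 1.72 for Igfbp4 (1.59 to 1.85), 1.40 for Igfbp3 (1.13 to 1.73), 1.37 for Igfbp7 (1.29 to 1.46) and 1.33 for Igf1 (0.966 to 1.84). In the authors' deposited table adjusted p is 0.711 for Igfbp6 and 0.687 for Igfbp4, and 1 for Igfbp3, Igfbp7 and Igf1. The log2 ratios of the 6 had a median of 0.63 and all were above 0, where 35.2% of all listed genes were above 0 and the median gene stood at -0.10.

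Stroma markers moved with these values. Of 20 endometrial stroma markers, all listed in this table, 18 were higher in KO epithelium and none was called, with a median log2 ratio of 0.45. The 17 with a value in all 4 pools summed to 4418 scaled UMIs in KO epithelium and 3214 in WT epithelium, and none was at 0 (177 to 4142 UMIs in KO, 154 to 2986 in WT). The 22 listed epithelium markers had a median of -0.17, the 13 listed smooth muscle markers -0.75 and the 7 listed blood endothelium markers 0.16. In such pools more cells of a type and more RNA per cell cannot be told apart.

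In stroma, where the same genotypes were compared, none of the 6 genes was called, against 1.51% of 1191 listed genes. Igfbp4 had a KO over WT ratio of 1.59 (1.45 to 1.74) and Igfbp5 of 1.50 (1.33 to 1.69), and the authors' deposited table has adjusted p = 0.596 for Igfbp4 and 0.908 for Igfbp5. Igfbp7 stood at 1.12 (1.04 to 1.21), Igfbp6 at 1.12 (0.985 to 1.28) and Igfbp3 at 1.02 (0.921 to 1.13). Igf1 was the one gene with a lower value in KO, at 0.793 (0.604 to 1.05), and for these last 4 the authors' deposited table has adjusted p = 1. Igf1 was listed in this comparison through WT stroma alone, which fixed its direction, so nothing is read from that direction. The median log2 ratio of the 6 was 0.17, where the median listed gene stood at -0.05 and 45.7% of listed genes were higher in KO. Beside this, the 7 listed epithelium markers were all higher in KO stroma (median log2 ratio 1.14). The 17 listed stroma markers had a median of 0.09, with 10 higher in KO, while all 11 listed smooth muscle markers were lower in KO, with a median of -1.15, and 5 of them were called. All 5 listed blood endothelium markers were lower in KO stroma, none called, with a median of -0.30. Beyond the scaling to stroma markers below, the part of these marker shifts in the values of the 6 genes was not tested. Marker lists with few listed members were macrophage, with 2 genes in epithelium and 1 in stroma, blood cells, with 1 and 3, and mesothelium, with 1 and 1, none called between genotypes.

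**Figure D2:**
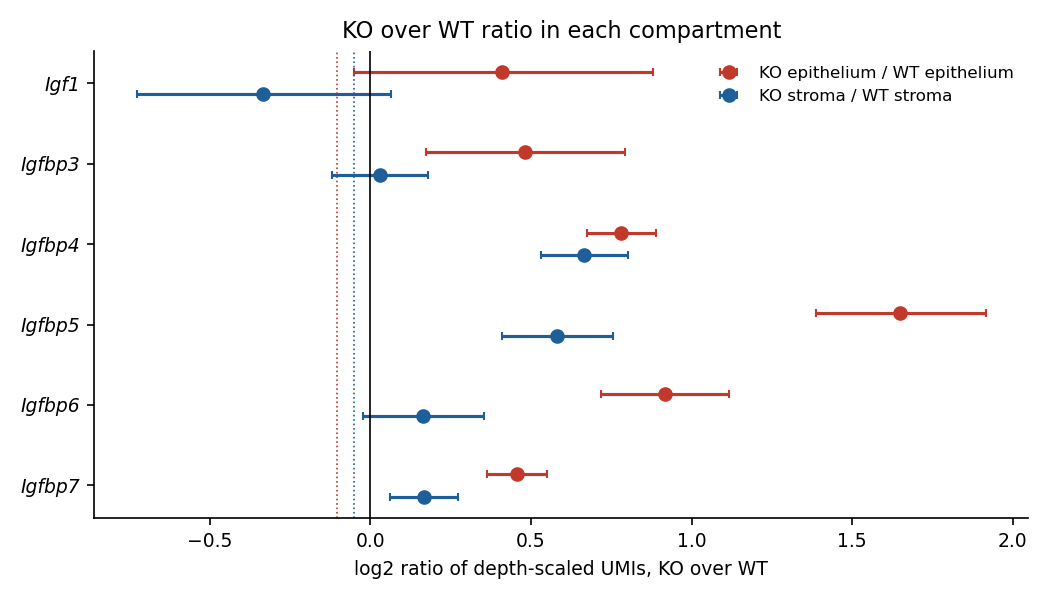
Log2 ratio of depth-scaled UMIs, KO over WT, for each gene in epithelium (red) and stroma (blue); bars are 95% exact counting intervals and dotted lines the median of all listed genes. In epithelium all 6 points lie above 0, with Igfbp5 highest at 1.65, and in stroma Igfbp4 (0.67) and Igfbp5 (0.58) stand apart from the rest.

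Dividing the epithelial KO over WT ratio by the stromal one says how far the genotype difference depends on compartment. The quotient was 2.09 for Igfbp5 (1.68 to 2.62), 1.68 for Igfbp6 (1.39 to 2.04), 1.68 for Igf1 (1.09 to 2.57), 1.37 for Igfbp3 (1.08 to 1.74), 1.22 for Igfbp7 (1.11 to 1.35) and 1.08 for Igfbp4 (0.960 to 1.22). Only for Igfbp4 did the counting interval include 1. A quotient above 1 was found for 6 of 6 genes, for 52.6% of the 1167 genes in all 4 tables, and for 98.6% of the 213 of these that were called lower in WT epithelium than in WT stroma. The last group was chosen on a WT contrast that enters the quotient, which by itself favours values above 1. A quotient above 1 was thus shared with nearly every gene of stromal pattern. No test between animals is possible for these quotients.

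The compartment comparisons ask where in the uterus each transcript lies. All 6 genes had lower scaled levels in epithelium than in stroma in both genotypes. In KO, 3 of the 6 were called lower in epithelium, where 4.45% of 2744 listed genes were. The genes were chosen with these contrasts known. Igf1 was also listed here through stroma alone, which fixed its direction, so nothing is read from the count. Igfbp3 was 6.96-fold lower in KO epithelium than in KO stroma (6.02 to 8.08), Igfbp5 2.86-fold lower (2.58 to 3.18) and Igf1 1.98-fold lower (1.52 to 2.59). The authors' deposited table has adjusted p = 4.29e-11 for Igfbp3, its smallest, 4.77e-06 for Igfbp5 and 0.0347 for Igf1. The others were not called, with values 1.65-fold lower for Igfbp6 (adjusted p = 0.0877), 1.39-fold lower for Igfbp7 (0.307) and 1.27-fold lower for Igfbp4 (0.681), p-values again from the authors' deposited table.

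In WT, 5 of the 6 were called lower in epithelium, where 15.7% of 1769 listed genes were. Here Igf1, Igfbp3 and Igfbp5 were listed through stroma alone, which fixed their direction. As in KO, nothing is read from the count. Igfbp3 was 9.52-fold lower in WT epithelium than in WT stroma (7.92 to 11.5), with the smallest adjusted p of the authors' deposited table (9.16e-27). Igfbp5 was 5.99-fold lower (4.95 to 7.28), Igf1 3.33-fold (2.40 to 4.63), Igfbp6 2.77-fold (2.37 to 3.25) and Igfbp7 1.71-fold (1.58 to 1.85). The authors' deposited table has adjusted p = 1.04e-15 for Igfbp5, 1.28e-05 for Igf1, 1.24e-06 for Igfbp6 and 0.00444 for Igfbp7. Igfbp4 was not called, at 1.37-fold lower (1.24 to 1.52; adjusted p = 0.225 in the authors' deposited table). These contrasts and the genotype contrasts are built from the same 4 pools and are not separate evidence.

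**Figure D3:**
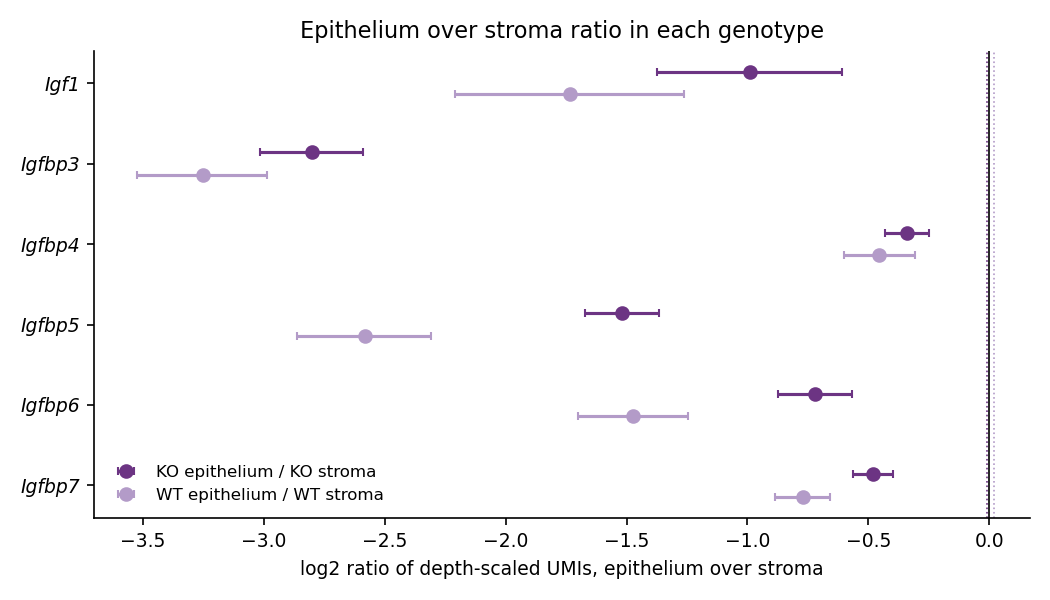
Log2 ratio of depth-scaled UMIs, epithelium over stroma, for each gene in KO (dark) and WT (light); bars are 95% exact counting intervals and dotted lines the median of all listed genes. Every point lies left of 0, from -3.25 for Igfbp3 in WT to -0.34 for Igfbp4 in KO, and each KO point lies right of its WT point.

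The binding proteins were also read together by summing their transcripts, which does not measure protein or IGF binding. Their 5 transcripts summed to 5732 UMIs in KO and 3263 in WT epithelium, and to 7224 in KO and 2885 in WT stroma. Scaled for depth, the sum was 1.62-fold higher in KO than in WT epithelium (1.55 to 1.69) and 1.24-fold higher in KO than in WT stroma (1.19 to 1.30). The sum follows Igfbp7 and Igfbp4, which made up most of it in every pool. Visium counts transcript ends, so the number of UMIs should not grow with transcript length and shares were read without dividing by it, though capture can differ between genes.

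The make-up of the sum differed by compartment and genotype. Igfbp5 took 9.12% of it in KO (8.39 to 9.90) and 4.72% in WT epithelium (4.02 to 5.50), and 15.1% in KO (14.3 to 16.0) and 12.6% in WT stroma (11.4 to 13.8). Its share was thus higher in KO within either compartment. Igfbp4 took 35.4% in KO and 33.4% in WT epithelium, and 26.0% in KO and 20.4% in WT stroma. Igfbp7 took 40.6% in KO and 48.0% in WT epithelium, and 32.8% in KO and 36.4% in WT stroma. The share of Igfbp7 was lower in KO within either compartment. Igfbp3 took 3.86% in KO epithelium and 4.47% in WT epithelium, with overlapping intervals, and 15.6% in KO stroma (14.7 to 16.4) and 19.0% in WT stroma (17.5 to 20.4). Igfbp6 kept between 9.44% and 11.6% in all 4 pools.

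**Figure D4:**
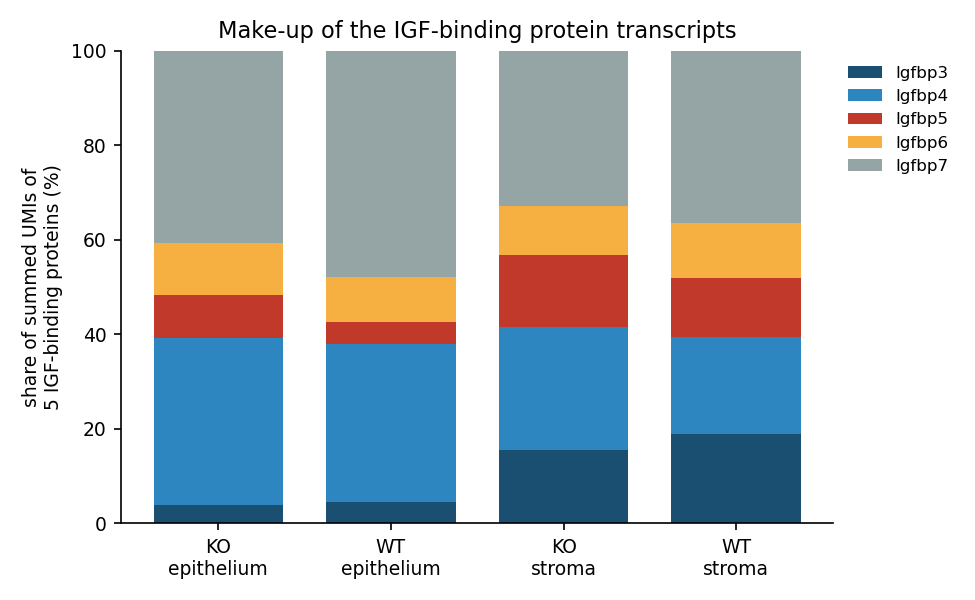
Share of the summed UMIs of Igfbp3 to Igfbp7 (per cent) taken by each gene in the 4 pools. Igfbp5 (red) has 9.12% in KO epithelium and 4.72% in WT epithelium, and Igfbp3 (dark blue) is below 5% in epithelium and above 15% in stroma.

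Relative to this sum, Igf1 had lower values in KO in both compartments. Per 1000 binding protein UMIs there were 17.1 Igf1 UMIs in KO (13.9 to 20.9) and 20.8 in WT epithelium (16.1 to 26.5), and 19.7 in KO (16.5 to 23.2) and 30.8 in WT stroma (24.7 to 38.1). The epithelial intervals overlapped. The stromal intervals did not, with the KO value below the WT value. Between the stroma pools Igf1 was listed through WT stroma alone, which fixed the direction of its own ratio there. The genes were also chosen with these folds known, so the stromal gap is a description.

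Because stroma markers differed between the epithelium pools, the 6 genes were also set against the stroma markers of the same pool, a scaling chosen after seeing the data. Dcn alone gave 5135 of the 9159 marker UMIs in WT stroma and 7593 of 16292 in KO stroma. Its KO over WT ratio in stroma was 0.735. The marker sum was lower in KO stroma (log2 ratio -0.18), though the median marker stood at 0.09. A lower sum raises the stromal KO over WT ratios on this scale. Between compartments Dcn also weighed on the sum, with a ratio of 0.398 for KO epithelium over KO stroma. The sum was lower in epithelium (log2 ratio -0.87 in KO, -1.51 in WT), while the median listed marker stood at -0.60 and -0.99. This raises every epithelium over stroma ratio on this scale, so orders between compartments here rest on that sum. Per 1000 UMIs of the 17 stroma markers, Igf1 had 8.05 UMIs in KO and 8.32 in WT epithelium, and 8.72 in KO and 9.72 in WT stroma. All 4 intervals overlapped, from 6.46 at the lowest to 12.0 at the highest bound. Igfbp5 had 43.0 in KO (39.3 to 46.9) and 18.8 in WT epithelium (16.0 to 22.1), and 67.1 in KO (63.0 to 71.3) and 39.6 in WT stroma (35.6 to 44.0). On this scale Igfbp5 remained higher in KO in both compartments, with log2 ratios of 1.19 in epithelium and 0.76 in stroma. Igfbp4 had 167 in KO and 133 in WT epithelium, and 115 in KO and 64.2 in WT stroma, so it was higher per stroma marker in epithelium than in stroma of the same genotype, the reverse of its order by depth. Igfbp7 had 191 in KO and 192 in WT epithelium, and 146 in KO and 115 in WT stroma. Igfbp3 had 18.2 in KO and 17.9 in WT epithelium, and 69.0 in KO and 59.7 in WT stroma. For Igfbp7 and Igfbp3 the epithelium pools were level on this scale, with log2 KO over WT ratios of -0.0014 for Igfbp7 and 0.023 for Igfbp3. Igfbp6 had 51.8 in KO and 37.7 in WT epithelium, and 46.5 in KO and 36.7 in WT stroma, higher in KO in each compartment (log2 ratio 0.46 in epithelium and 0.34 in stroma). By depth its stromal KO over WT ratio was 1.12, with an interval that includes 1 (0.985 to 1.28).

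**Figure D5:**
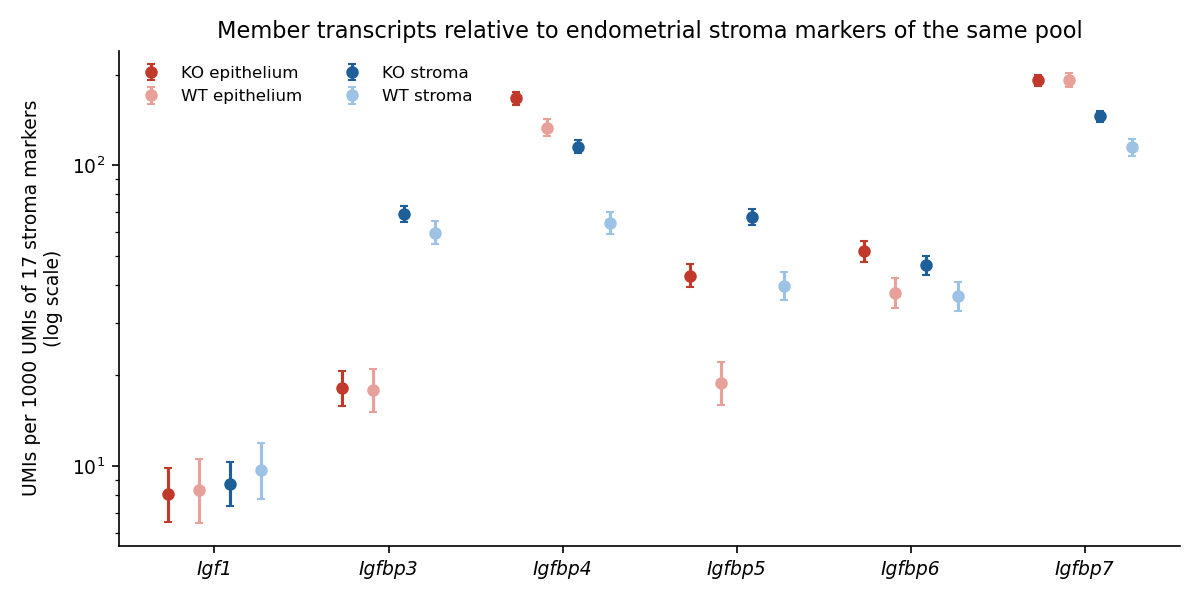
UMIs of each gene per 1000 UMIs of 17 endometrial stroma markers of the same pool (log axis); bars are 95% exact counting intervals. Igf1 lies between 8.05 and 9.72 in all pools, while Igfbp5 has 43.0 in KO epithelium and 18.8 in WT epithelium.

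Other genes of the IGF system came from lists written with earlier results of these data known. In the genotype comparisons none of their listed members beyond the 6 was called, where 0.120% of all genes were called in epithelium and 1.51% in stroma. The lists had at most 20 listed genes in epithelium and 9 in stroma, so nothing is read from the lack of calls. In epithelium the receptor genes had KO over WT ratios of 1.11 for Igf1r (287 UMIs in KO, 239 in WT), 1.33 for Insr, the insulin receptor, and 0.937 for Igf2r, which clears IGF2. In stroma Igf1r stood at 0.700 (0.572 to 0.858; 238 UMIs in KO, 169 in WT), for which the authors' deposited table has adjusted p = 0.944. Between compartments of WT, Igf1r was called 1.80-fold lower in epithelium (adjusted p = 0.0218) and Insr 3.22-fold lower (1.03e-05), both from the authors' deposited table. In KO, Igf1r was not called, at 1.14-fold lower in epithelium (0.952 to 1.35). The adaptor Irs1 went the other way and was called higher in epithelium in both genotypes, 1.88-fold in KO (1.49 to 2.38) and 2.05-fold in WT (1.47 to 2.91).

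Proteases that can cut binding proteins, and their inhibitors, split between compartments. Of 20 such genes 9 were listed in each compartment table. In KO, 1 was called higher in epithelium, where 5.43% of all genes were, and 4 lower, where 4.45% were. In WT, 2 were called higher, where 13.1% of all genes were, and 5 lower, where 15.7% were. Plat, tissue plasminogen activator, was 2.08-fold higher in epithelium in KO (1.84 to 2.35) and 5.04-fold higher in WT (4.04 to 6.36). Ctsd, the lysosomal protease cathepsin D, was called in WT, 2.31-fold higher in epithelium (2.04 to 2.62), and had a value 1.37-fold higher in KO, not called. The metalloprotease gene Adamts1 was 2.88-fold lower in KO epithelium and 4.70-fold lower in WT epithelium than in stroma. The inhibitor Timp3 was 2.28-fold lower in KO and 2.96-fold lower in WT epithelium, while Timp2 was 1.71-fold lower in KO and 2.07-fold lower in WT. The serine protease gene Htra3 was 1.73-fold lower in KO and 2.37-fold lower in WT epithelium, and all of these were called. Mmp2, which is also among the stroma markers, was called in WT, 1.75-fold lower in epithelium, and had a value 1.28-fold lower in KO, not called. Whether these and the next contrasts differ between genotypes was not tested. Between genotypes the list had a median log2 ratio of -0.05 in epithelium and -0.02 in stroma. It had no call among 10 and 9 listed members, where 0.120% and 1.51% of all genes were called.

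Among matrix and surface partners of the binding proteins, the heparan sulfate proteoglycan gene Sdc4 was called higher in epithelium, 2.79-fold in KO (2.40 to 3.26) and 5.10-fold in WT (3.86 to 6.86). The endocytic receptor gene Lrp1 was called 2.05-fold lower in WT epithelium, as was the matrix gene Sparc, also a stroma marker, at 2.64-fold. In KO the values were 1.51-fold lower for Lrp1 and 1.68-fold lower for Sparc, not called. For the signalling arms downstream of the receptor, 1 of 6 listed PI3K-AKT-mTOR genes was called lower in WT epithelium. In WT 15.7% of all genes were called lower and 13.1% higher, and 0 of 3 listed RAS-MAPK genes were called. In KO 0 of 10 and 0 of 5 were called, where 4.45% of all genes were lower and 5.43% higher. With so few genes listed, nothing is read from these counts. Of the PI3K-AKT-mTOR list, 20 of 26 genes were listed between genotypes in epithelium, with a median log2 ratio of -0.08. The 12 listed RAS-MAPK genes had the same median to 2 decimals, and all genes had -0.10. Sesn1, a stress-induced brake on mTOR, was the 1 called gene of the PI3K-AKT-mTOR list between compartments, 2.20-fold lower in WT epithelium, and had a value 1.30-fold lower in KO, not called. The growth hormone axis gave Jak2, called 2.68-fold higher in WT epithelium, with a value 1.60-fold higher in KO, not called. The ubiquitin ligase gene Nedd4 was called 1.86-fold lower in WT epithelium, with a value 1.29-fold lower in KO, not called.

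The genes whose profile over the 4 pools was most like each member were found by the root mean square difference of log2 level, each gene centred on its own mean, among 1578 genes with at least 50 UMIs in every pool. Over 4 pools this is a description. Nearest to Igf1 were Selenop, a secreted selenium carrier (0.054), Cyp27a1, a sterol hydroxylase (0.063), and Msn, the membrane linker moesin (0.067). Nearest to Igfbp4 were the crosslinking enzyme gene Tgm2 (0.073) and the fibrillar collagen genes Col1a1 (0.075) and Col3a1 (0.093). Near to Igfbp6 were Mfap5, a microfibril component (0.058), and Mxra8 (0.093), and nearest to Igfbp7 were Islr (0.049), Tspan3 (0.055) and Mmp2 (0.058). Igfbp3 and Igfbp5 had no such close neighbour. For Igfbp5 the nearest were Apoe, which carries lipids (0.32), Cd34 (0.43) and the matrix gene Dpt (0.46). For Igfbp3 they were the methyltransferase gene Inmt (0.42), the long noncoding RNA Kcnq1ot1 (0.53), whose reads cannot be told from those of the overlapping Kcnq1 unless strand was counted, and Gpx3, a secreted glutathione peroxidase (0.55). Among the members themselves, Igfbp4 and Igfbp7 were closest (0.24) and Igfbp3 and Igfbp4 farthest apart (1.34).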

How the data were processed

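Visium libraries came from 10 µm uterine sections of 4 KO and 4 WT females, with GRCm38 as genome build according to the submitters' processing notes. Not given in the sources used here are the aligner, how spots were named, and the authors' test. Per the file headers, each of the 4 deposited tables gives each group's average, its log2 fold change and an adjusted p-value (FDR), all by the authors. The averages pool the animals of a genotype, so no test between animals was run, and whether the authors' test took spots or animals as replicates is unknown.

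The deposited averages and log2 values, which carry a pseudocount of 1, give each group's size factor sum by least squares and so its UMI sums, with each average taken as a UMI sum over a size factor sum. All sums (100%) lay within 0.01 of a whole number, and 0 genes differed between tables. Ratios are of these sums over size factors, with no pseudocount. The method was tested on simulated tables. Intervals are exact: Clopper-Pearson for ratios and shares, Poisson for levels, conditional for quotients of ratios.

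The 6 genes, the 11 pathway lists and the 7 marker lists were chosen with earlier results of these data known. Named genes were the 6 members, list genes called by the authors in any table, the IGF receptor genes, Pgr, Esr1, and the 3 genes nearest in profile to each member; some genes this rule names are not reported here. Insr in epithelium, Ccn2 and marker genes were named after their values were seen. Of 5828 gene IDs, 5826 were found in GENCODE M21. Scripts used Python 3.11.15 with NumPy 2.4.6, SciPy 1.17.1, pandas 2.3.3 and matplotlib 3.10.9.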

Additional observations from a re-analysis of the deposited data

How the results depend on the processing

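Calls were recounted at an adjusted p under 0.01, with a minimum absolute log2 of 1, and without the lowest 25% of genes by level. At 0.01 the count of members called between genotypes in epithelium became 0, since Igfbp5 lost its call; the other counts stayed within 1.5 times. The authors' log2 values and centring on genes in all 4 tables moved 0 of 24 member ratios outside the counting interval, and centring on the table's median moved 1 (Igfbp7 in epithelium, log2 0.56), with no change of sign. Scaling to 17 stroma markers, chosen after seeing the data, moved 21 of 24 and turned 8 signs. It turned the sign of called contrasts of WT epithelium against WT stroma for Igfbp6 (log2 0.039) and Igfbp7 (0.74). Igfbp6 was level on this scale, at 37.7 (33.5 to 42.2) in WT epithelium and 36.7 (32.8 to 40.9) in WT stroma. In this comparison the scaling subtracts the log2 ratio of the marker sum (-1.51) from every gene. The cause of that marker difference was not tested. Shares with Igfbp1 and Igfbp2 added could not be computed, as these are not analysed here. No paired analysis was possible because each table gives 1 value per genotype over all its animals, so the pairing by litter is lost. For that reason no replicate could be left out. Depth limits Igf1 most, at 68 to 142 UMIs a pool.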

Other observations

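Steroid receptor genes, which act upstream of Igf1 in the uterus, had lower values in KO in both compartments without a call. All 8 listed receptors and co-regulators were lower in KO epithelium (median log2 ratio -0.26), where 35.2% of all listed genes were higher in KO and the median gene stood at -0.10. All 4 listed were lower in KO stroma (median -0.50), where 45.7% of all genes were higher and the median gene stood at -0.05. Esr1, the estrogen receptor gene, had 847 UMIs in KO and 849 in WT epithelium, and 672 in KO and 427 in WT stroma, a KO over WT ratio of 0.921 in epithelium (0.836 to 1.01) and 0.782 in stroma (0.692 to 0.885). The glucocorticoid receptor gene Nr3c1 was called lower in epithelium than in stroma in both genotypes, 2.13-fold in KO and 2.80-fold in WT. Ccn2, which encodes a matrix protein with an IGFBP-like domain, had 46 UMIs in KO epithelium and 142 in WT epithelium (ratio 0.299, 0.210 to 0.420), and the authors' deposited table has adjusted p = 0.170. Of 10 genes of the Polycomb complex and its opposing demethylases 9 were listed in epithelium and 2 in stroma. Their median log2 ratio was -0.15 in epithelium and -0.04 in stroma. None was called, where 0.120% of all genes were called in epithelium and 1.51% in stroma. The growth hormone axis had 5 listed genes in epithelium, none called (median -0.17), and the receptor adaptors 7 (median 0.15).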
